A study of Mus musculus with 6 samples.

Results

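Chromatin at 10 genes of the mouse major histocompatibility complex (MHC) and its control was examined in the thymus: H2-K1, H2-D1, B2m, Tap1, Tap2, H2-Aa, H2-Ab1, H2-Eb1, Ciita and Nlrc5. All 10 were found among the 21627 protein-coding genes of the RefSeq annotation on chromosomes 1 to 19 and X. The assay was ATAC-seq, which reads accessible DNA from where a transposase has inserted adapters, and each library was deposited as a list of peak summits, the positions of greatest signal. Summits lying from 20 kb before to 20 kb after each gene body were taken, extended by 250 bp on each side and merged across libraries into regions. The 10 windows held 69 of the 73702 regions of the genome.

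The series set the thymus of mice carrying an AD allele of p53, in a study whose title speaks of p53 dimers, over a null allele (genotype p53 AD/-) beside that of p53 -/- mice (p53-null), with 3 libraries of each. All mice were 4 weeks old, had germline p53 alterations and a background given as 50% BALB/C and 50% C57BL6. Neither group carried a wild-type p53 allele. The label gives the strain mixture and not the MHC haplotype of each mouse, the coordinates are those of the C57BL/6J genome, and the tissue was whole thymus rather than sorted cells. Nothing states that the libraries of a genotype came from different mice, so p-values measure only the spread between these libraries.

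The class I heavy chains encoded by H2-K1 and H2-D1 pair with beta-2-microglobulin, the product of B2m, and display peptides to CD8+ T cells on nearly all nucleated cells. Those peptides are carried into the endoplasmic reticulum by the transporter formed by Tap1 and Tap2. Class II molecules (H2-Aa with H2-Ab1 for I-A, H2-Eb1 for the beta chain of I-E) display peptides to CD4+ T cells and in the mouse are made mainly by thymic epithelial cells, dendritic cells, B cells and macrophages, not by thymocytes. Ciita for class II and Nlrc5 for class I encode coactivators that do not bind DNA by themselves. They are recruited by RFX, CREB and NF-Y proteins bound to the X and Y boxes of MHC promoters. Both selection steps of thymocytes depend on these molecules.

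The promoter sequences are shown because the summits of these genes fell inside them. RefSeq windows of 300 bases on GRCm38.p6, from 250 bases before the start site to 50 bases after, were matched for 6 of the 10 genes. Each is printed 5′ to 3′ along the gene's strand, and capitals mark matches on either strand to the letters GGGGATTCC (the NF-kB type enhancer A of class I genes), GAANNGAAA (interferon response type), TGACGC and TGACGTCA (X2 box type, bound by CREB-like factors), CAACNGATG (X1 box type, bound by RFX), CTGATTGG (Y box, bound by NF-Y) and GATTGG, the core contained in the Y box. The letters were chosen after the sequences had been read.
H2-K1: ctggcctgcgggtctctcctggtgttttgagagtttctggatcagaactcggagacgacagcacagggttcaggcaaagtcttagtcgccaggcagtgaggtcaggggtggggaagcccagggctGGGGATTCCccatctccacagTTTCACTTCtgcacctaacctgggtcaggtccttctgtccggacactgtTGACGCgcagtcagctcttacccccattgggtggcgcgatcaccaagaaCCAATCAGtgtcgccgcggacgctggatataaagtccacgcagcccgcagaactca
H2-D1: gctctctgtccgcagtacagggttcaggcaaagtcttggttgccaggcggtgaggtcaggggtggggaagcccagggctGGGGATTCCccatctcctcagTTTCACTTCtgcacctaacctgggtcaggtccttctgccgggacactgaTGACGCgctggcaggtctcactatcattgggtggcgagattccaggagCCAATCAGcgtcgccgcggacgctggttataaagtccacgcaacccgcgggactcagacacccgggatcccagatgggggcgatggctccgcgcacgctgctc
B2m: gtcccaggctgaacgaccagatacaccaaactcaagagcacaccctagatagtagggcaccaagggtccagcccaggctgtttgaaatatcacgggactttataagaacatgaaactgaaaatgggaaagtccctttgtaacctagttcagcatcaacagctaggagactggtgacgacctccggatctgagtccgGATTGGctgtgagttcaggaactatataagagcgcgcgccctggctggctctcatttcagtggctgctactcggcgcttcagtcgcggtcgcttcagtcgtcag
Tap1: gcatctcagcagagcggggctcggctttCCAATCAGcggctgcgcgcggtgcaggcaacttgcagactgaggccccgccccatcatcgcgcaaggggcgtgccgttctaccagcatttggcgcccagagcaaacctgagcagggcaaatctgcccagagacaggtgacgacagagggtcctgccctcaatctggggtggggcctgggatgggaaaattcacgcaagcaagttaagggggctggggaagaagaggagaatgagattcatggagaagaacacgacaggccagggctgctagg
H2-Aa: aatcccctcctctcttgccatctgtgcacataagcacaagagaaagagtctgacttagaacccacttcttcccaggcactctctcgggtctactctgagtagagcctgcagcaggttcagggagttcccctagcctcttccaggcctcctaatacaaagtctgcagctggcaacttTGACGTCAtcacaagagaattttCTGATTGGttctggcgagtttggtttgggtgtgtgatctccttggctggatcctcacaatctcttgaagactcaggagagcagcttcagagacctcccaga
H2-Eb1: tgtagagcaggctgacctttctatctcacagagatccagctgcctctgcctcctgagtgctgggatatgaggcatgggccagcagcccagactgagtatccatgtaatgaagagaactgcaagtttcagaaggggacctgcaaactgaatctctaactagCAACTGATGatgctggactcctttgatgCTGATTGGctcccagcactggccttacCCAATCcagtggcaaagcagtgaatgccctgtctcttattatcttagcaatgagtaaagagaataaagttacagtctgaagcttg
They stand at chr17:34000284-34000583 (minus strand), chr17:35262844-35263143 (plus), chr2:122147437-122147736 (plus), chr17:34187306-34187605 (plus), chr17:34287774-34288073 (minus) and chr17:34305617-34305916 (plus), in that order. H2-K1 has 2 such windows, and the window shown has the lower start coordinate. H2-Ab1, Tap2, Ciita and Nlrc5 had no entry in the table.

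The class I promoters shared their layout. Over 253 aligned bases the H2-K1 and H2-D1 windows were identical at 222 (87.7%), and both held enhancer A, the interferon response type letters on the opposite strand, TGACGC and the Y box on the opposite strand, in that order. Enhancer A began 125 bases before the H2-K1 start and 171 before the H2-D1 start, and the Y box 6 and 53 bases before. The shared letters tataaagtccacgc lie after the annotated start in H2-K1 and before it in H2-D1. Distances from the start therefore cannot be compared between these genes, while distances between the letter matches can. GGGGATTCC occurred in 82 of 32851 promoter windows (0.25%), GAANNGAAA in 7.52% and TGACGC in 7.4%. The class II windows held the Y box at 51 bases (H2-Aa) and 62 bases (H2-Eb1) before the start. Upstream of it lay TGACGTCA in H2-Aa (1.79% of all windows) and CAACNGATG in H2-Eb1 (0.566%). The Y box letters were found in 5 of the 6 windows, including Tap1 at 222 bases before the start, and in 4.1% of all windows. Of the chosen letters, B2m held the core GATTGG alone, 54 bases before its start (16.1% of all windows). Its window also reads gaaactgaaa, with a longer gap between GAA and GAAA than in GAANNGAAA. That form was not searched for, so B2m is not shown to lack interferon response type letters. These matches are letters in a sequence and not measured binding.

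Summits of the class I heavy chain genes lay between the X2 type letters and the Y box in 11 of 12 cases, 6 at H2-D1 and 5 at H2-K1. At H2-D1 the summit was 81 bases before the start in 5 libraries and 78 before it in AD/- library 1, so that it stood 20 to 23 bases downstream of the first base of TGACGC and 25 to 28 bases upstream of the Y box. At H2-K1 it was 40 bases before the start in 5 libraries, 34 bases upstream of the Y box, and 3 bases before the start, within the Y box letters, in null library 3. Reads of H2-K1, H2-D1 and the other class I copies are alike, and how reads that map to several places were treated is not stated in the sources used here, so a summit may hold reads of a related copy.

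At the H2-Aa and H2-Eb1 promoters summits were spread around the Y box. In H2-Aa they were 84, 37, 43, 40 and 62 bases before the start in AD/- libraries 1 and 2 and null libraries 1, 2 and 3, and AD/- library 3 had none. In H2-Eb1 they were 41, 41 and 81 bases before the start in the AD/- libraries and 48, 69 and 48 in the null libraries. The genotypes overlapped at both genes. At H2-Ab1 all 6 summits lay within 8 bp, 21 to 29 bp outside its lower end. The summits of H2-Eb1 spanned 40 bp, those of B2m 60 bp and those of Tap1 93 bp. The B2m summit stood at the start or up to 11 bases before it in 5 libraries and 49 bases after it in null library 3.

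**Figure D1:**
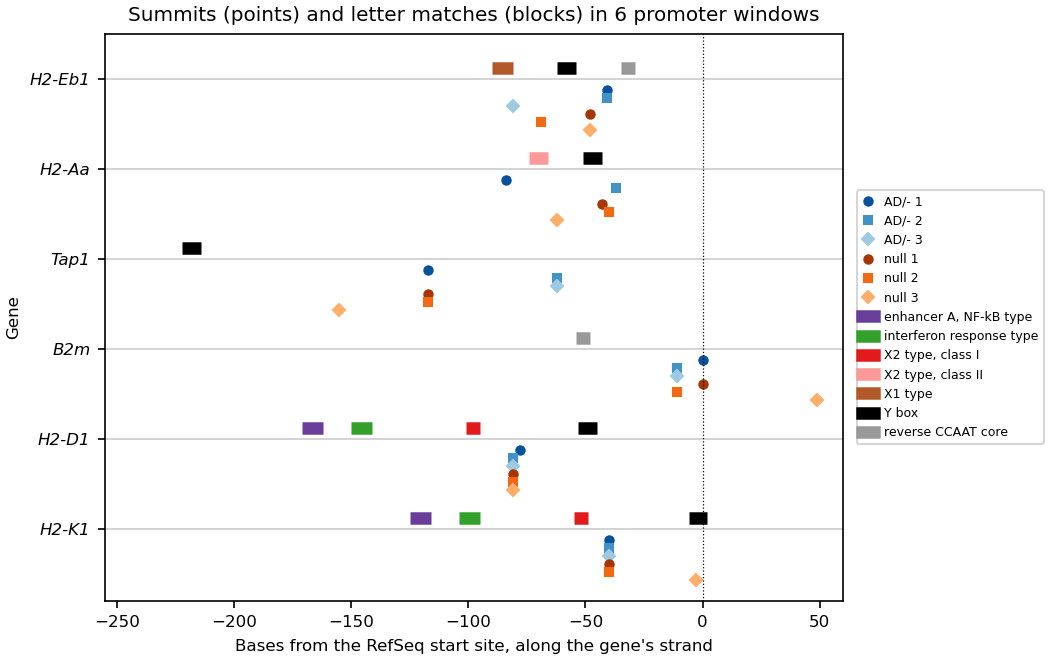
Position of the summit of each library (points) and of the letter matches (blocks) in 6 promoter windows, in bases from the RefSeq start site along the gene's strand. At H2-D1 all 6 points lie between 78 and 81 bases before the start, while at Tap1 they span 62 to 155 bases before it.

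Of the peptide transporter genes, Tap1 shared its start region with an immunoproteasome gene. The Tap1 summit was 117 bases before the start in AD/- library 1 and null libraries 1 and 2, 62 before it in AD/- libraries 2 and 3, and 155 before it in null library 3. That region lay 109 bp from the nearest end of Psmb9, which encodes an inducible proteasome subunit, so that opening of the 2 genes cannot be told apart here. Tap2 had a region of its own, with the summit 17 to 80 bp inside the end with the lower coordinate. At Psmb8, another inducible subunit gene within both transporter windows, the summit stood at position 34198335 in all 6 libraries (percentiles 65.6 to 74.4).

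The starts of class I presentation genes ranked above those of H2-Eb1 and H2-Aa in every library. Within a library, the score of each summit, read as −log10 of the q-value, was ranked, with 100 at the top. The H2-D1 start stood at percentiles 96.5, 96.1 and 94.7 in AD/- libraries 1, 2 and 3 and 94.7, 96.6 and 96.3 in null libraries 1, 2 and 3. Tap1 had 95.3, 93.7 and 93.6 in AD/- and 95.3, 94.1 and 95.5 in null. B2m had 92.4, 91.3 and 89.1, and 90.5, 89.8 and 91.1. These 3 genes of class I presentation were the top of the list in every library, and H2-D1 exceeded Tap1 in 5 of the 6 libraries, with overlapping ranges. Beyond the 10 genes the order was not general. The class I loading gene Tapbp stood at 55.3 to 65.5 in the 5 libraries with a start summit. The class I heavy chain gene H2-Q1 stood at 27.9 to 44.2, and the class II processing gene H2-DMa at 89.6 to 91.6.

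H2-K1 and Nlrc5 came next and could not be ordered. The H2-K1 start stood at 86.9, 88.4 and 81.7 in AD/- and 84.1, 84.1 and 85.2 in null. Nlrc5 (chromosome 8, 94434335 to 94527272) had 84.8, 86.1 and 79.8 in AD/- and 85.5, 84.8 and 87.0 in null, and was below H2-K1 in the 3 AD/- libraries and above it in the 3 null libraries. That split was noticed after the values had been seen, in a single pair of genes. How often other pairs split by genotype was not obtained, and the split was not tested. Tap2 followed with 77.8, 77.3 and 76.4 in AD/- and 79.5, 79.4 and 79.7 in null, below both in all 6 libraries.

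Among the class II starts, H2-Ab1 overlapped Tap2, and H2-Eb1 and H2-Aa were the lowest. H2-Ab1 had 76.5, 80.6 and 67.0 in AD/- and 74.9, 74.8 and 80.5 in null. H2-Eb1 had 62.8, 68.5 and 48.3, and 68.7, 66.4 and 68.2. H2-Aa had 51.5 and 54.2 in AD/- libraries 1 and 2, and 58.6, 50.8 and 52.8 in null. H2-Ab1 exceeded H2-Eb1 in 6 of 6 libraries, and H2-Eb1 exceeded H2-Aa in 5 of the 5 with both. In bulk tissue a start that is open in few cells and one that is weakly open in many cannot be told apart.

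Percentiles of the genotypes overlapped at 7 of the 8 starts found in all 6 libraries. The exception was Tap2, lower in every AD/- library, and percentiles did not overlap at 6.13% of the 11747 genes with a start summit in all 6 libraries. On lists of equal length, in which every library keeps its 44492 best summits, Tap2 overlapped (72.7, 69.4 and 76.4 in AD/-, 75.1, 74.3 and 73.5 in null). H2-K1 was then higher in every AD/- library (83.9, 84.3 and 81.7 beside 80.7, 80.2 and 80.6) and H2-Eb1 lower (54.3, 57.4 and 48.3 beside 61.9, 57.9 and 58.5), 2 of 8 starts beside 8.24% of 11538 genes. None of the 8 genes was apart on both kinds of list. These comparisons were chosen after the values had been seen and carry no test.

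**Figure D2:**
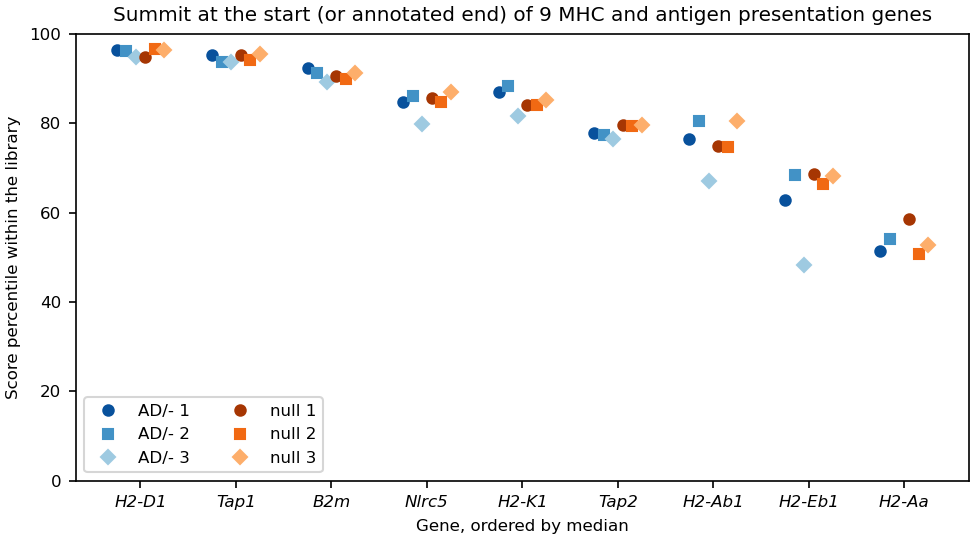
Score percentile within the library (vertical axis) of the summit at the start of 9 genes, or at the annotated end where no start was matched, for 3 AD/- and 3 null libraries (points). The class I genes H2-D1 and B2m stay at 89.1 or above, H2-Aa at 58.6 or below, and AD/- library 3 has no H2-Aa point.

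Ciita had no summit within 1 kb of either annotated end in any library. The gene lies on chromosome 16 from 10480014 to 10531064. Of the 12 regions of its window, 2 were found in all 6 libraries, and both belonged to neighbours: the region 3 bp from the end of Dexi (percentiles 91.5 to 95.6) and the region 30 bp from the end of Clec16a (81.9 to 86.2). Inside Ciita 7 regions were seen. The summit near 10523031 was found in 5 libraries, at percentiles 40.0, 33.03 and 47.8 in AD/- and 35.7 and 46.2 in null libraries 1 and 3. That near 10525080 was at 37.7 and 47.4 in AD/- libraries 1 and 2 and at 25.9, 53.2 and 46.6 in null, and that near 10528893 was found in the same 5 libraries at 15.5 to 49.7. A further region 9655 bp inside the lower end was present in null library 2 alone (percentile 6.3). An end without a summit does not show that a promoter is closed, since alternative starts are known for Ciita.

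Nlrc5, in contrast, had a summit at its lower end in every library. Regions lay along the bodies of both genes, 5 in Nlrc5 and 7 in Ciita. The start summit was at 94434310 or 94434311 in all 6 libraries, a range of 1 bp. Within the gene, the region near 94492535 was found in all 6 libraries at percentiles 57.8 to 72.3, and that near 94486085 in all 6 at 24.9 to 42.4. In the former the summits spanned 367 bp and lay lower, at 94492198 and 94492191, in AD/- library 3 and null library 1, and between 94492528 and 94492558 in the other 4. Of the 11 regions of the window, 7 were found in all 6 libraries, beside 2 of 12 at Ciita. Of these 7, 1 was the start region and 2 of them lay within the Nlrc5 body, which held 5 regions. A further 2 lay inside the neighbour Cpne2, and 2 lay 11857 and 18906 bp outside the lower end of Nlrc5.

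The first comparison was whether any region was present in 1 genotype alone. Of the 69 regions, 0 had a summit in every AD/- library with none in null (0.179% of all regions, 132 of 73702), and 0 showed the opposite (0.418%, 308 of 73702). Such regions are rare in the whole genome, and a count of 0 among 69 does not stand apart from that background. A single region cannot pass a test in this design, since 3 libraries against 3 give an exact p of 0.1 at best. Summits in all 6 libraries were found in 38 of the 69 regions (55.1%), beside 52.1% of all regions and 53.4% of the regions within 20 kb of any protein-coding gene.

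The region nearest to a null-specific one lay 95 bp from an end of H2-Eb2, a class II beta chain gene beside H2-Eb1. It was found in all 3 null libraries (percentiles 23.8, 26.9 and 37.4) and in AD/- library 2 (33.8). In the other direction, a region inside Ciita near 10516260 was found in all 3 AD/- libraries (percentiles 2.2, 4.9 and 6.9) and in null library 3 (0.48), among the weakest summits of each list. A region 5426 bp beyond Ciita, inside Dexi, was found in AD/- libraries 1 and 2 alone, at percentiles 8.1 and 5.6. It is the only region of 69 with 2 libraries of one genotype and 0 of the other. The regions of intermediate presence were low ones: the 20 regions found in 2 to 5 libraries had a median percentile of 28.3, the 11 found in 1 library 7.8, and the 38 found in all 6 had 69.2 (64.5 for all such regions of the genome).

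**Figure D3:**
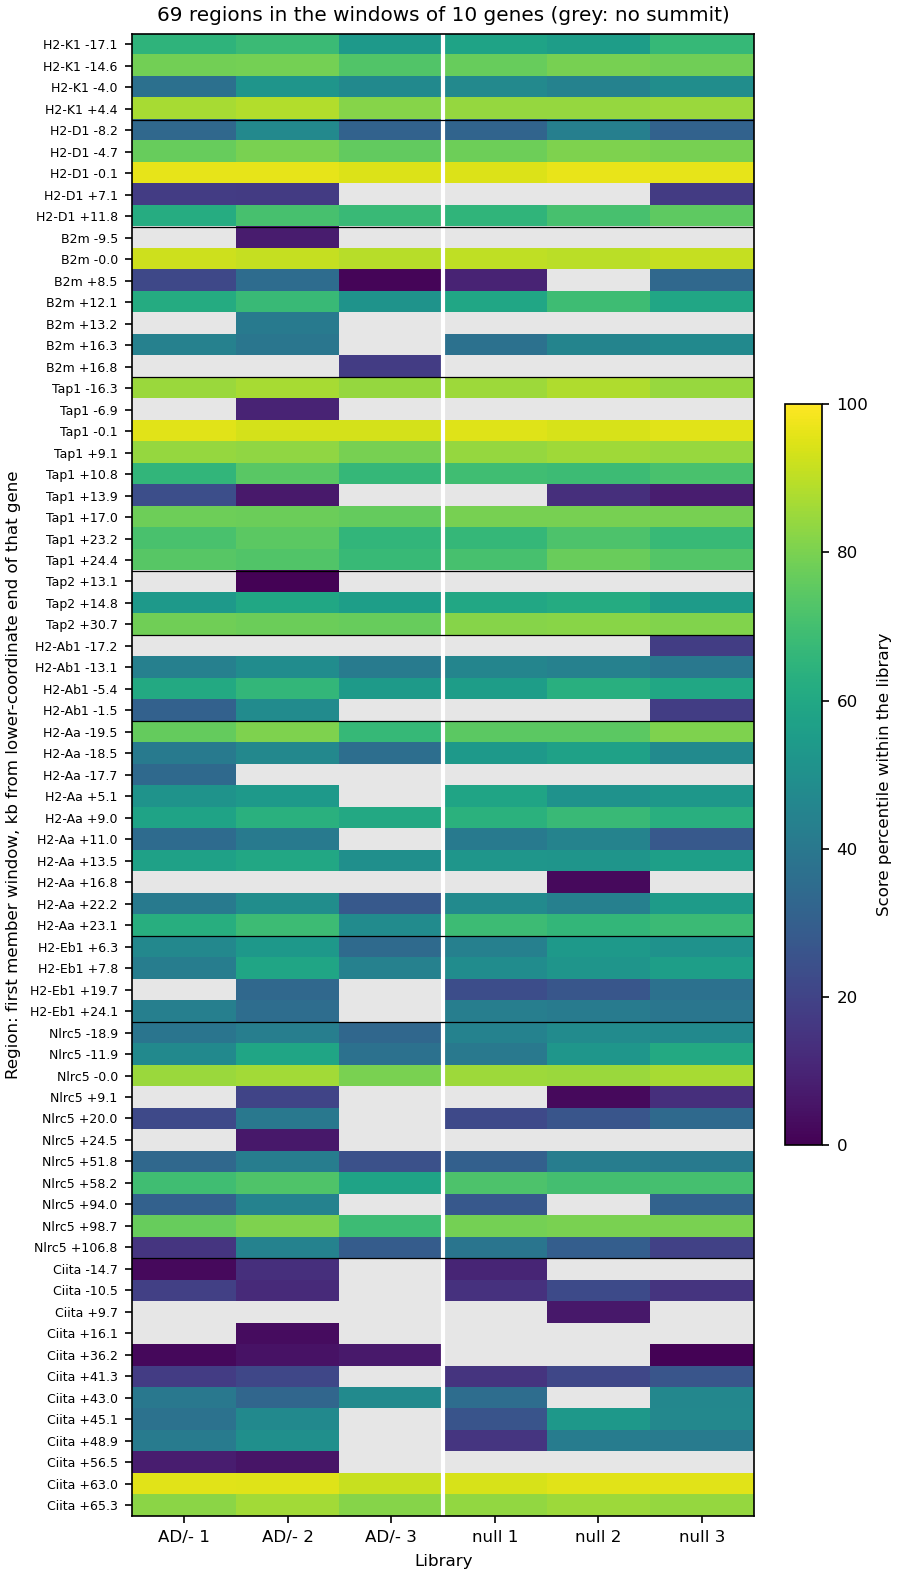
Score percentile within the library (colour, grey for no summit) of the 69 regions (rows, named by the first window that holds them and the distance in kb from the lower-coordinate end of that gene) in 6 libraries (columns). The rows of the Ciita window, at the bottom, have 4 coloured cells in AD/- library 3 and 7 to 11 in the others.

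The number of regions per window did not separate the genotypes at any of the 10 genes. H2-K1 had 4 regions in every library. H2-Eb1 had 9, 10 and 6 in AD/- and 10, 11 and 10 in null (8.33 ± 2.08 and 10.3 ± 0.58, SD, n = 3 each; exact permutation p = 0.3, two-sided). Its groups met at 10 regions, which AD/- library 2 shared with null libraries 1 and 3. B2m had 4, 6 and 4 in AD/- and 4, 3 and 4 in null (4.67 ± 1.15 and 3.67 ± 0.58, n = 3 each; exact permutation p = 0.6). Ciita had 10, 11 and 4 in AD/- and 8, 7 and 8 in null (8.33 ± 3.79 and 7.67 ± 0.58, n = 3 each; exact permutation p = 1). At H2-Eb1 and Ciita the lowest count was that of AD/- library 3, and at B2m AD/- library 2 had the highest.

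At the other 6 genes the mean counts differed by less than 1 region. H2-Aa had 7.67 ± 1.53 and 8.33 ± 0.58 regions in AD/- and null, H2-Ab1 5.67 ± 1.53 and 5.67 ± 1.15, Nlrc5 9.0 ± 2.0 and 9.33 ± 0.58, H2-D1 4.67 ± 0.58 and 4.33 ± 0.58, Tap1 8.0 ± 1.0 and 7.67 ± 0.58, and Tap2 9.0 ± 1.0 and 8.67 ± 0.58 (SD, n = 3 each; exact permutation p from 0.9 to 1). The class II windows overlap, as do those of Tap1 and Tap2, so these are not separate measurements: 17 of the 69 regions lay in more than 1 window. Counts did not overlap between genotypes at 0 of the 10 genes, beside 1.49% of 16795 genes with a region in their window (251 genes; higher in every AD/- library in 0.411% and lower in 1.08%). The smallest Benjamini-Hochberg adjusted p over all those genes was 1, and 0 genes had an unadjusted exact p under 0.05, which this design cannot give. Without AD/- library 3 the counts of Ciita did not overlap (10 and 11 beside 7 and 8), and without AD/- library 2 those of H2-Eb1 did not (6 and 9 beside 10 and 11). No share over all genes was obtained with a library left out, and fewer libraries separate more easily, so nothing is concluded from either gene.

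**Figure D4:**
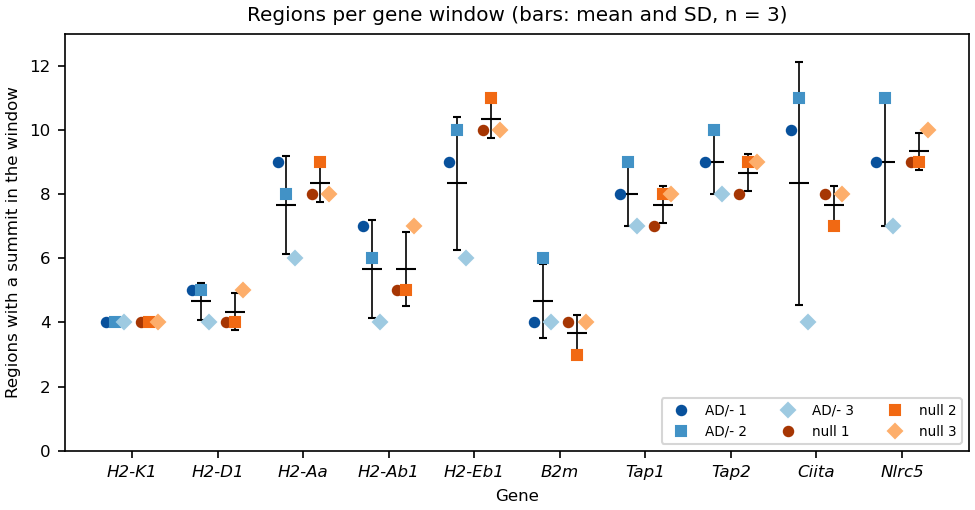
Number of regions with a summit (vertical axis) in the window of each of 10 genes, by library (points), with the mean and SD of each genotype (bars, n = 3). The AD/- and null points overlap at every gene, and AD/- library 3 has the lowest count at H2-Aa, H2-Ab1, H2-Eb1, Ciita and Nlrc5.

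Summit positions were also compared, at 1 bp resolution. In the 38 regions found in all 6 libraries, the positions spanned 0 to 367 bp over the libraries, with a median of 40.5 bp (49 bp for all such regions). The AD/- and null positions did not overlap in 2 regions (5.26%), beside 6.09% of all 38374 such regions, a share near the background. In the region 3762 bp from H2-Ob, which encodes a chain of the class II loading regulator H2-O, the summit was at 34235102, 34235109 and 34235142 in AD/- and at 34235143 in all 3 null libraries. The difference of means was −25.3 bp (n = 3 each; exact permutation p = 0.1, which no outcome could undercut; Benjamini-Hochberg adjusted p = 1 over all regions). Between H2-Aa and H2-Eb1 it was at 34296285, 34296284 and 34296222 in AD/- and at 34296286, 34296287 and 34296287 in null, a difference of −23 bp (exact permutation p = 0.1, n = 3 each; adjusted p = 1). In the former, AD/- library 3 lay 1 bp from the null libraries, and in the latter AD/- libraries 1 and 2 lay within 3 bp of them. The score percentiles of the region by H2-Ob were 78.4, 77.5 and 76.9 in AD/- and 82.0, 82.1 and 81.0 in null. They did not overlap either, but the region was named because its positions did not. How many of all regions have such percentiles, and the values on lists of equal length, were not obtained, so nothing is concluded from them.

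AD/- library 3 held the fewest regions in the windows of the class II genes, of Ciita and of Nlrc5. The class II windows held 15, 15 and 10 regions in AD/- libraries 1, 2 and 3 and 14, 15 and 16 in the null libraries. Of the 13 class II regions found in the other 5 libraries, 3 were missing from AD/- library 3 (23.1%), beside 12.7% of 43956 such regions in the genome. They were the H2-Aa start, a region 5924 bp from the H2-Aa end with percentiles of 28.1 to 44.6 elsewhere, and a region inside H2-Eb2 with 35.9 to 43.3. Over all 10 windows 9 of 47 such regions were missing from AD/- library 3 (19.1%), beside the same 12.7%. From null library 2 alone 2 of 40 were missing (1.22% in the genome), and from each of the other 4 libraries alone 0 of 38 (1.2% and 0.451% for AD/- libraries 1 and 2, 1.66% and 0.74% for null libraries 1 and 3). At Ciita 4 of 6 were missing, at Tap1 and Tap2 0 of 9, and at the class I genes 1 of 11. This list is the shortest, with 44492 summits on chromosomes 1 to 19 and X beside 54139 to 60157 in the others.

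The nearest summit of AD/- library 3 lay 3941 bp from the H2-Aa start. In the other 5 libraries the lowest percentile of that start was 50.8. Of the 4722 regions found in those 5 libraries whose lowest percentile was within 5 points of it, 206 (4.36%) were missing from AD/- library 3. On lists of equal length the H2-Aa start stood at 40.4 and 38.0 in AD/- libraries 1 and 2 and at 49.6, 38.4 and 38.5 in null, and 168 of 3761 regions of similar rank (4.47%) were missing. This comparison was chosen after the gap had been seen. On lists of equal length the class II windows held 15, 15 and 10 regions in AD/- and 14 in each null library. No share over the genome was obtained for these counts. The H2-Ab1 start then stood at 71.2, 73.7 and 67.0, and 69.5, 68.4 and 74.6.

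On lists of equal length, the starts of H2-D1, H2-K1, B2m, Tap1 and Tap2 were not lowest in AD/- library 3. All 8 starts with a summit in AD/- library 3 were lowest there on the full lists, as were 64.8% of the 11747 genes with a start summit in all 6 libraries. On lists of equal length 3 of the 8 were (H2-Ab1, H2-Eb1 and Nlrc5), beside 16.1% of 11538 genes. At H2-K1 and Tap2, AD/- library 3 was then above every null library.

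**Figure D5:**
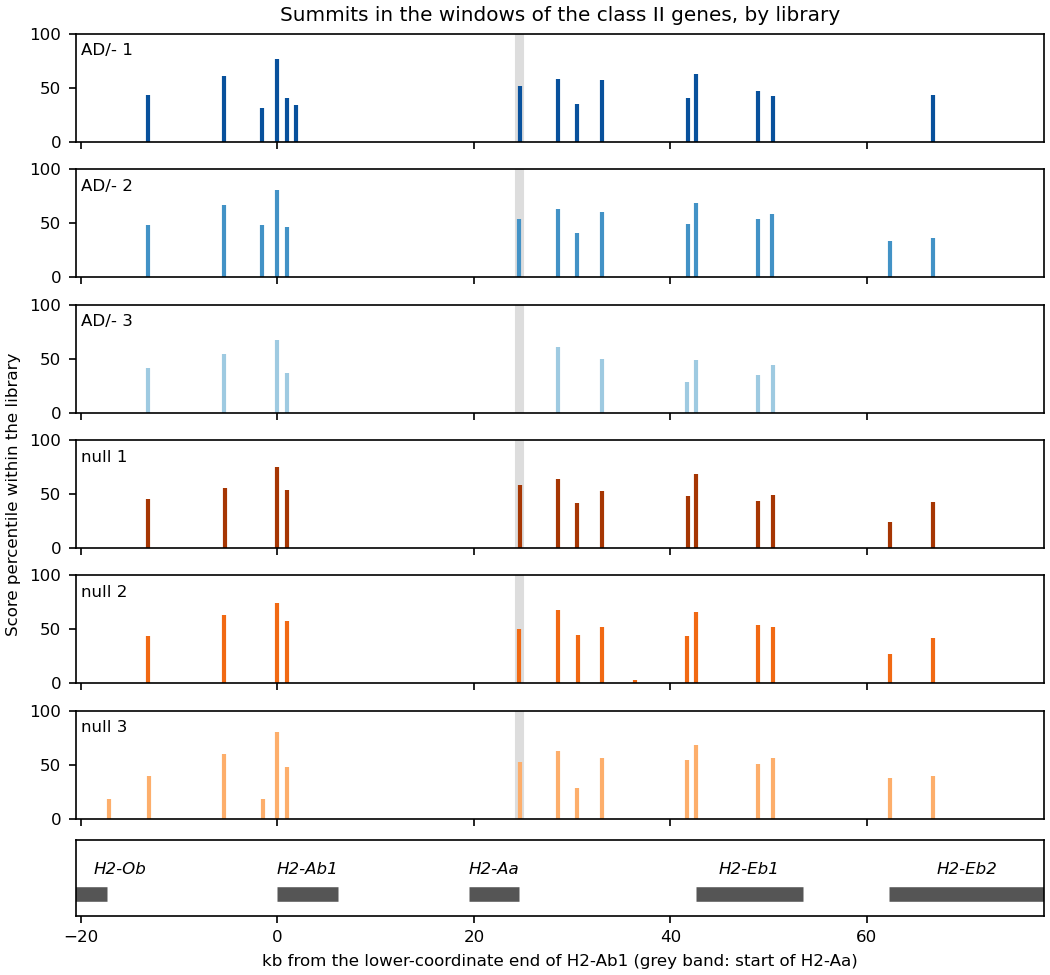
Summits in the class II windows, by library (rows), at their distance in kb from the lower-coordinate end of H2-Ab1, with the score percentile within the library as height and genes as bars below. AD/- library 3 has 10 summits and none at the H2-Aa start (grey band), and the other libraries have 14 to 16.

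Other genes of class II presentation were partly lower in AD/- library 3. Ifi30, a lysosomal thiol reductase of antigen processing, had its start at 48.0, 55.6 and 12.1 in AD/- and 41.1, 47.0 and 49.4 in null. H2-Oa, the alpha chain of H2-O, had 71.4, 74.4 and 57.6, and 69.3, 69.4 and 72.3. H2-DMb1, a chain of the peptide exchange factor H2-DM, had 49.5, 54.3 and 34.0, and 45.8, 47.5 and 53.3. On lists of equal length these 3 of the 8 class II processing genes with a start summit in every library were lowest in AD/- library 3 (12.1 for Ifi30 beside 28.4 to 40.0 elsewhere, and 34.0 for H2-DMb1 beside 34.04 to 39.1), beside 16.1% of 11538 genes. The same count, 3 of 8, was found among the promoter binding factors. The windows of the class II processing genes held 50 regions in each AD/- library and 47, 48 and 48 in the null libraries on lists of equal length, so AD/- library 3 was not low in number there. These counts did not overlap between genotypes, and no share over comparable windows was obtained. On the full lists they were 56, 60 and 50 in AD/- and 54, 59 and 60 in null, which overlap. The start of Cd74, the invariant chain, was not lowest in AD/- library 3 on lists of equal length. It had 15.8, 32.96 and 25.3 in AD/- and 10.2, 17.2 and 25.5 in null. H2-DMa stood at 90.1 in AD/- library 3 and 89.6 to 91.6 in the others on the full lists, and H2-Ob at 40.4 and 36.5 to 52.3.

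Markers of the cells that carry class II molecules had a start summit in all 6 libraries less often than thymocyte markers. Start summits in all 6 libraries were found for 8 of 8 thymocyte markers, 3 of 8 B cell markers (Cd79b, Ebf1 and Blk), 2 of 10 dendritic and myeloid markers (Flt3 and Spi1) and 4 of 10 thymic epithelial markers (Epcam, Aire, Ccl25 and Cldn4). The share over all protein-coding genes was 54.3%. Of the thymic epithelial markers, 2 more had a start summit in 1 to 5 libraries and 4 had none. Ms4a1, Itgax, Zbtb46, Foxn1 and Psmb11 had none in any library. The windows of the dendritic and myeloid markers held 52, 61 and 41 regions in AD/- and 56, 50 and 60 in null, and on lists of equal length 40, 42 and 41, and 43, 43 and 42. Thymic epithelial windows held 41, 39 and 37, and 39, 38 and 39 on lists of equal length, and B cell windows 31, 31 and 29, and 30, 30 and 27. Thymocyte windows held 72, 68 and 78, and 68, 69 and 70 on the same lists. Itgax, the integrin CD11c of dendritic cells, had 1 region in AD/- library 3 and 5 or 6 in the others. Among single markers, the start of Blk, a kinase of B cells, stood at 60.1, 62.8 and 34.0 in AD/- and 51.5, 47.9 and 60.1 in null, and those of Itgam and Prss16 had a summit in every library but AD/- library 3. These 4 genes were named because they were low or missing in AD/- library 3. On lists of equal length, the start was lowest in AD/- library 3 at 1 of 3 B cell markers, 0 of 2 dendritic and myeloid markers and 1 of 4 thymic epithelial markers with a start summit in every library. The same held at 2 of 8 thymocyte markers and at 16.1% of 11538 genes. The part of the cells that carry class II molecules in the class II values of AD/- library 3 was not tested.

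The factors that act on MHC promoters had a summit at their start, or at an annotated end where no start was matched, in every library. Start summits in all 6 libraries were found for 8 of 8 promoter binding factors, 7 of 7 interferon gamma signalling genes and 5 of 5 NF-kB subunit genes, beside 54.3% of all protein-coding genes. Rfx5, a subunit of the RFX complex, stood at percentiles 89.9 to 93.7, and Irf1, an interferon-induced activator of MHC genes, at 95.0 to 96.0. Ciita, whose product is recruited by RFX, CREB and NF-Y proteins, had none at an annotated end.

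Class I processing genes had start summits in all 6 libraries for 9 of 11, and class II processing genes for 8 of 10. Tapbp, which encodes the loading factor tapasin, had a start summit in 5 libraries (55.3 to 65.5), with null library 2 the exception, and its window held 7 regions in every library. Psmb10, an inducible proteasome subunit, had one in AD/- libraries 1 and 2 and null library 3. Of 12 further class I heavy chain genes, 8 had a start summit in all 6 libraries, from H2-T22 at 92.9 to 94.9 down to H2-Q1 at 27.9 to 44.2, and H2-Q10 and Cd1d1 had none. H2-Q6 and H2-Q7 had a start summit in 2 and 1 libraries.

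Over all 6 pathway lists, 1 gene had a genotype-specific region in its window. Over the genome, 0.179% of 73702 regions were specific to AD/- and 0.418% to null. The share of all gene windows that hold one was not obtained, so nothing is concluded from this gene or from the markers named below. H2-Q2 had an AD/- region on chromosome 17 from 35353719 to 35354221, 7205 bp outside the gene, at percentiles from 21.0 to 29.6. A null summit lay 507 bp from its median position, just beyond the distance at which summits were merged. Among markers, Prss16, a serine protease of thymic cortical epithelium, had an AD/- region 10881 bp outside the gene (lowest percentile 41.2, a null summit 1854 bp away), and Flt3, a receptor of dendritic cell progenitors, a null region 2246 bp outside it (12.1, an AD/- summit 2315 bp away). Region counts did not overlap at Psmb11, the proteasome subunit of cortical epithelium, with 3 regions in each AD/- library against 4, 6 and 4 in the null libraries (exact permutation p = 0.1, n = 3 each; adjusted p = 1 over all genes; lower in every AD/- library in 1.08% of genes).

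The targeted gene, Trp53, had a summit near 1 annotated end in all 6 libraries, between 69579355 and 69579411, at percentiles 79.9 to 86.5. Weaker summits lay at 69586468 in null library 3 (percentile 0.92) and at 69589732 in null library 2 (14.1). The first was found in both genotypes and the others in 1 library each, so the chromatin of Trp53 is no check of the labels. Library totals were 44496 to 60160 summits, and read depth is unknown.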

How the data were processed

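ATAC-seq was performed on 6 thymus libraries. The authors deposited 1 summit list per library, with a score read here, from its values, as −log10 of a q-value (the lowest are 1.30 to 1.39, where a q-value of 0.05 gives 1.30). Per the submitters' processing notes, the tools were MACS2 2.1.2, Picard 2.9.0, Bowtie2 2.3.4.2 and Trim Galore 0.4.5, and the build was GRCm38. Their settings, duplicate removal, masking and the treatment of reads that map to several places are not given in the sources used here. Widths and reads were not used here, so depth is unknown and the length of a list is the only measure of what a library detected.

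Libraries were grouped by the genotype label and numbered in order of deposition. On chromosomes 1 to 19 and X, summits were widened by 250 bp per side and merged (Python 3.11.15, pandas 2.3.3, NumPy 2.4.6), after the scripts had been tested on simulated data. Percentiles rank a summit within its own library and carry no test. Region counts per gene and summit positions were compared by exact two-sided permutation over 20 relabellings and Benjamini-Hochberg adjustment over all genes or regions. Promoter windows and start sites came from RefSeq tables on GRCm38.p6, which matched 99 of 99 list genes by symbol and 78 of them with a promoter. For the rest, either annotated end was used. The named genes are Trp53, the members, 10 pathway genes and any list gene with a genotype-specific region or non-overlapping counts, and other names were chosen after their values were seen. One of the pathway genes is not reported here. Members and lists were chosen with earlier results of these data known. Alternatives were extensions of 100 and 500 bp, scores of at least 5, lists of equal length, windows of 5 kb, 2 or 3 libraries against 0, mean positions and each library left out.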

Additional observations from a re-analysis of the deposited data

How the results depend on the processing

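The counts of 0 genotype-specific regions in the windows stayed 0 for both genotypes with extensions of 100 and 500 bp, scores of at least 5, lists of equal length and windows of 5 kb. With 2 or 3 of 3 libraries against 0 the AD/- count was 1 and the null count 0. Leaving out each library gave 0 to 1 AD/- regions (1 without AD/- library 3 or null library 3) and 0 to 1 null regions (1 without AD/- library 2). Regions in all libraries numbered 37 or 38 under the other settings, 22 (of 40 in all) with windows of 5 kb, and 38 to 47 with each library left out, the highest without AD/- library 3. Genes whose counts do not overlap numbered 0 to 1 with each library left out and 0 otherwise. With a library left out, no share over all genes or regions was obtained. Regions whose positions do not overlap numbered 2 in all 3 alternatives. Among 110 single-gene differences in region counts (AD/- minus null), 9 changed sign. With scores of at least 5 they were −0.33 at Tap2 and −1.33 at Ciita, and with lists of equal length −0.33 at Ciita. With each library left out, the differences ran from −0.67 to 2.83 at Ciita (below 0 without AD/- library 1, −0.17, or 2), from −0.17 to 0.83 at Tap1 and at Tap2 (below 0 without AD/- library 2), from −1.33 to 0.17 at H2-Aa and from −1.33 to 0.67 at Nlrc5 (both above 0 without AD/- library 3). At H2-Eb1 the difference of −2.0 became 0 with windows of 5 kb. No difference was past a threshold under any setting, which this design cannot give, and the causes were not tested. No paired analysis was possible because the labels carry no replicate numbers. Percentiles on lists of equal length, and the comparison of regions ranked near the H2-Aa start, were added after seeing the data.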
